A study of Mus musculus with 6 samples.

Results

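The genes described here are 49 genes of the cell division cycle, 31 that act in mitosis and cytokinesis and 18 that act in DNA replication or at its onset, read in mouse lungs shortly before birth. They were picked by gene symbol for their known role, but with earlier results of these data known. Where several probe sets of the array read a gene, the brightest on average stands for it. Of the 49, 48 had a probe set that the platform annotation assigns to that gene alone (30 mitotic and 18 replication genes), out of 18193 genes so represented. Ccnb1, which encodes cyclin B1, had no row in the annotation used and has no value here. The arrays compared wild type lungs with Smad1 CKO lungs, in which a conditional knockout removed Smad1, a transcription factor of the BMP pathway, from the lung epithelium. All animals carried the strain label C57/BL6, were at E18.5 and gave total RNA of the left lobe, 1 Affymetrix Mouse430_2 array per animal, in 3 pairs of 1 wild type and 1 CKO animal. The Cre line that drove the deletion, the allele of the wild type animals and what made 2 animals a pair (a litter, for example) are not stated in the labels. The whole lobe was used, so cells in which Smad1 was not targeted are part of every value, and in such bulk RNA fewer dividing cells and less of an mRNA per cell cannot be told apart.

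Most of these genes are transcribed in 1 phase of the cell cycle and are therefore low in resting cells. Genes of DNA replication peak at the transition from G1 to S phase, under E2F transcription factors, and encode the helicase that is loaded at origins, the polymerases and the enzymes that make deoxynucleotides. Genes of mitosis peak in G2 and M phase, where cyclin B with its kinase Cdk1 starts mitosis, checkpoint kinases watch the attachment of chromosomes to the spindle, and the anaphase-promoting complex ends it. Their promoters often hold a cell cycle genes homology region (CHR) together with CCAAT boxes. In fetal lung, division slows towards birth as distal cells differentiate.

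The promoter windows are shown first because they separate the mitotic from the replication genes by a feature that the choice of genes did not use. RefSeq windows (GRCm38.p6, 250 bases before to 50 after the start site) were at hand for 41 of the 49 genes, 27 mitotic (Ccnb1 among them) and 14 replication genes, and 3 of these genes had 2 windows, of which either could match. Both strands were searched. The letters taken for a CHR were TTTGAA. A box of the CCAAT kind was searched by those 5 letters. The letters of the E2F type were TTGGCGC, or with another base inside them TTCGCGC, or also TTCCCGC, or lastly TTGCCGC. The CHR letters occurred in 20 of 27 mitotic genes (74.1%) and in 2 of 14 replication genes (14.3%), against 15.7% of the 14453 genes with a window and a probe set. For the E2F-type letters the order was the opposite, with 5 of 27 mitotic genes, 9 of 14 replication genes (64.3%) and 16% of the 14453. CCAAT boxes stood in 22 of 27 mitotic genes (81.5%) and 10 of 14 replication genes (71.4%), against 42.0%. Over all 27025 genes with a window the shares were 20.2% for the CHR letters, 10.9% for the E2F-type letters and 41.1% for CCAAT. In mitotic genes the CHR letters lay close to the start site (median position -5 over 29 matches). Of the 27 E2F-type matches, 6 shared bases with a CCAAT match. These are matches of letters, described without a test, and show no binding.

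**Figure D1:**
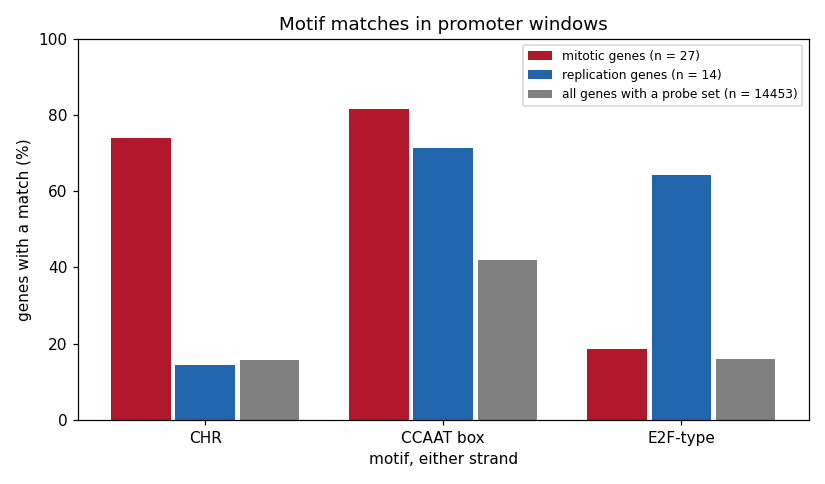
Share of genes (%) whose promoter window holds a match to the CHR, CCAAT or E2F-type letters on either strand, for 27 mitotic genes, 14 replication genes and 14453 genes with a window and a probe set. The CHR bar is high for the mitotic genes (74.1%) and the E2F-type bar for the replication genes (64.3%).

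Of the windows, 5 are printed over the 250 bases before the start site, 5′ to 3′ on the strand of the gene, 3 of mitotic genes and then 2 of replication genes. Capitals mark matches to the CHR, CCAAT and E2F-type letters, on either strand. They are the windows of Mki67 (chr7:135716380-135716629, minus strand), Cdc20 (chr4:118437344-118437593, minus strand), Cdk1 (chr10:69352913-69353162, minus strand), Rrm2 (chr12:24708004-24708253, plus strand) and Mcm6 (chr1:128359706-128359955, minus strand).
Mki67: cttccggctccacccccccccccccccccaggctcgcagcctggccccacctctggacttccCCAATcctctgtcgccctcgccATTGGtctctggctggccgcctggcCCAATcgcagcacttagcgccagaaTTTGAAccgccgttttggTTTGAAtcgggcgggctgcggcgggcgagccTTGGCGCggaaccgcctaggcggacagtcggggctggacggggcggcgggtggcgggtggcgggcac
Cdc20: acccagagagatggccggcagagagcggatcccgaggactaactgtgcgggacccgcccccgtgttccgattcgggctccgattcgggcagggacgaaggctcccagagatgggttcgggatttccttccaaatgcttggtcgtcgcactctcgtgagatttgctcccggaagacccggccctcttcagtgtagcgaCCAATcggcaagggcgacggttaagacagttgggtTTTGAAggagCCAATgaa
Cdk1: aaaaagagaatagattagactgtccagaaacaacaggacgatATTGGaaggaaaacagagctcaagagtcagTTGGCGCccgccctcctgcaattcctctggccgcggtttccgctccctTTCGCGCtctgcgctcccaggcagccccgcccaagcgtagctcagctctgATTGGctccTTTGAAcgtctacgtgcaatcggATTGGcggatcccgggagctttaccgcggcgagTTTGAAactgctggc
Rrm2: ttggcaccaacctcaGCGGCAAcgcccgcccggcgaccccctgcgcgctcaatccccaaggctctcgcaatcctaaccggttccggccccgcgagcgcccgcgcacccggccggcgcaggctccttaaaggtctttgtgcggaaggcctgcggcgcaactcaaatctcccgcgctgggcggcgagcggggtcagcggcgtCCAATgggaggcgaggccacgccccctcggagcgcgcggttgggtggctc
Mcm6: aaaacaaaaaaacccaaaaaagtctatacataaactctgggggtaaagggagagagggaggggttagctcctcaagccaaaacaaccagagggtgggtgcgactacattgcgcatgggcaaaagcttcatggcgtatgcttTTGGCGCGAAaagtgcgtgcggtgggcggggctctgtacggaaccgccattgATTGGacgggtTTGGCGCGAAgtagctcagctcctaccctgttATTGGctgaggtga
The CHR letters occur in the stretches of Mki67, Cdc20 and Cdk1 and in neither of Rrm2 and Mcm6. E2F-type letters occur in Mki67, Cdk1, Rrm2 and Mcm6, in Mcm6 as overlapping matches on both strands, and CCAAT letters in all 5. Where no match is marked, only these letters are missing from the stretch.

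Across the 3 pairs most of these genes were lower in the CKO lungs, mitotic genes more than replication genes, but no gene passed the test across all probe sets. Of the 48 genes, 30 were lower in CKO in all 3 pairs (62.5%), against 29.3% of all 18193 genes, and 2 were higher in all 3 pairs, against 21%. Among mitotic genes 22 of 30 were lower in every pair, and among replication genes 8 of 18. Taken pair by pair, 27, 26 and 27 of the 30 mitotic genes and 13, 12 and 13 of the 18 replication genes were lower in pairs 1 to 3, against 56.9%, 50.4% and 56.4% of all genes. The median log2 difference (CKO minus wild type, mean of the pairs) was -0.64 over mitotic genes and -0.29 over replication genes, against -0.09 over all genes. By pair, the mitotic median was -0.59, -0.14 and -1.07 in pairs 1 to 3 and the replication median was -0.27, -0.03 and -0.58, while the median over all genes was -0.09, 0.00 and -0.16. The mitotic median thus lay below the replication median in every pair, by 0.33, 0.11 and 0.49, a mean difference of -0.31 ± 0.19 (SD, 3 pairs).

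In the paired fit (limma, Benjamini-Hochberg over 45037 probe sets, threshold 0.05) 0 of 48 genes were called, with a lowest adjusted p of 0.367, against 0% of all genes by their brightest probe set and 0.00222% of all probe sets. At an unadjusted p under 0.05, 13 genes were lower and 0 higher, 11 of the 13 mitotic, against 9.96% of all genes lower and 4.96% higher. With 3 animals per genotype an exact permutation cannot go below 0.1, or 0.25 within pairs, so none is given. The p-values and intervals of the paired fit do not rest on a gene's own spread over the 3 pairs alone. For each probe set, limma pulls that spread towards a value shared by all probe sets. The SD printed beside a mean is the gene's own, so it does not match the interval: Pole had an SD of 0.04 and a standard error of 0.18. Levels that both animals of a pair share are removed by that fit. With the pairs left out of the limma fit, 0 genes were lower at an unadjusted p under 0.05.

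The CKO and wild type arrays overlapped for every one of the 48 genes, whereas 6.05% of all genes had all 3 CKO values below all 3 wild type values and 4.25% had them above. CKO 2 lay above both wild type 1 and wild type 3 in 40 of the 48 genes. Wild type 2, its partner, was the highest of the 3 wild type arrays in 44 genes and the highest of all 6 in 37. Wild type 2 exceeded wild type 1 by a median of 0.31 over mitotic genes and wild type 3 by 0.46, more than the 0.14 by which CKO 2 lay below wild type 2. Among the CKO arrays, CKO 3 was the lowest of all 6 in 35 genes and CKO 1 in 10.

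**Figure D2:**
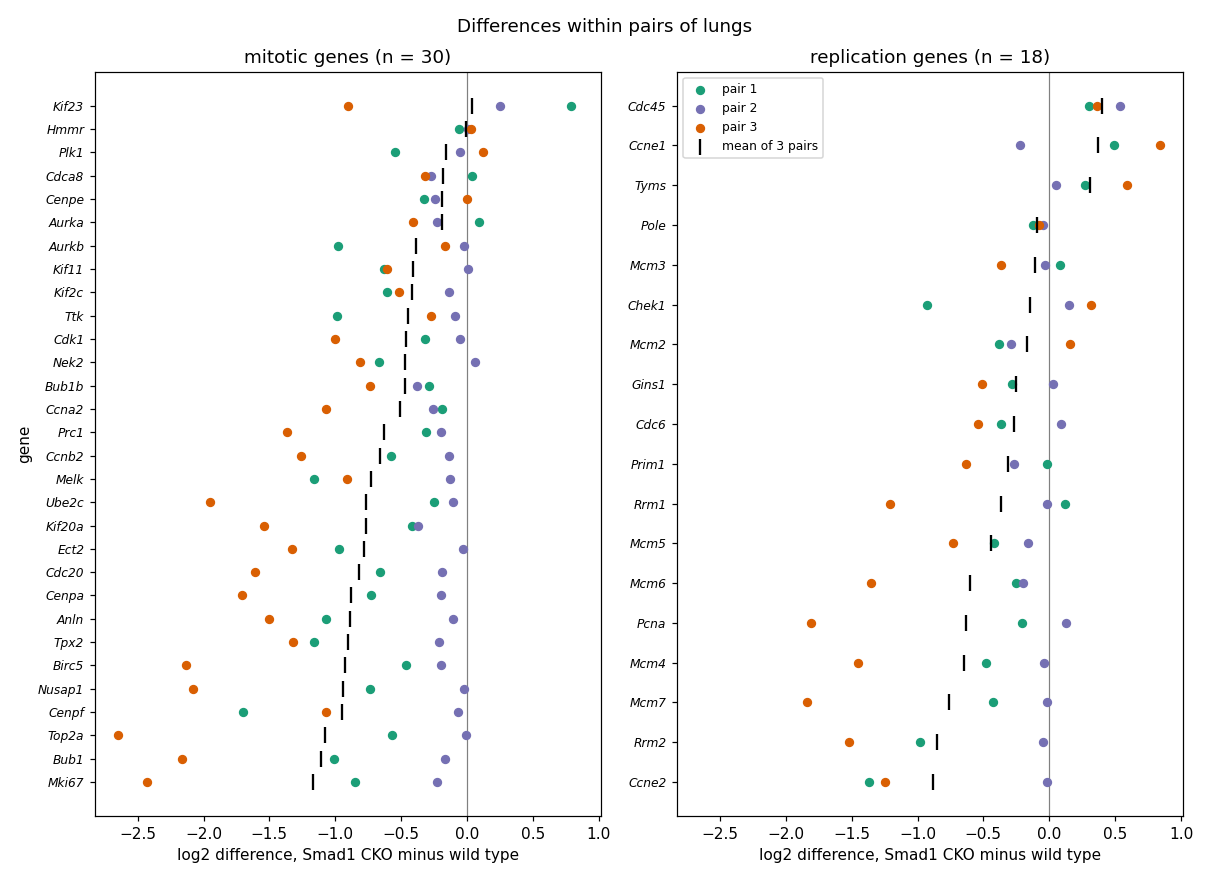
Log2 difference (Smad1 CKO minus wild type) of each gene within pairs 1 to 3 (coloured points) and the mean of the 3 pairs (black mark), for 30 mitotic and 18 replication genes in order of the mean. Pair 2 lies nearest to 0 for most genes (mitotic median -0.14), pair 3 spreads furthest to the left (-1.07), and 3 replication genes (Cdc45, Ccne1 and Tyms) have the highest means.

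The size of the pair 3 values went with a property of its CKO array. The control probe set for 18S rRNA read 2887 on CKO 3, with the remaining 5 arrays at 242.5 to 297.2, and that for beta-actin read 5820, with the remaining ones at 18450 to 20900. Bright probe sets were low on that array as a body: genes with a mean log2 level of 8 to 9 had a median difference of -0.80 in pair 3, -0.33 in pair 1 and -0.04 in pair 2, and those of 9 to 10 had -1.06, -0.32 and -0.03. In the bin from 6 to 7 the medians were 0.17, 0.08 and 0.02. Pair 1 held a further difference, since CKO 1 had a log2 level of 10.95 for Xist, with 6.07 to 7.70 elsewhere, and of 3.78 for Eif2s3y, a gene on the Y chromosome, with 7.06 to 9.04 elsewhere. These are levels of a female lung, while its partner, wild type 1, had those of a male lung (6.23 and 8.66). In pair 1, genotype and sex therefore cannot be told apart. The part of these properties in the values of the cell cycle genes was not tested beyond the values that follow. The lung markers were present, with Sftpc (surfactant protein C) at 12.22 to 14.46 on all arrays. Smad1 itself ranged from 9.05 to 10.62 in CKO lungs, higher than its partner in 2 of 3 pairs. This does not check the labels, since the deleted exons are not stated and untargeted cells keep the gene.

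Set beside genes of the same brightness, mitotic genes had the lower medians in the 2 bins that hold most of them. In the bin from 7 to 8, which holds 15 of them, their medians were -0.55, -0.20 and -0.81 in pairs 1 to 3, against -0.24, -0.03 and -0.39 for all 3067 genes of the bin. In the bin from 8 to 9, with 7 mitotic genes, they were -0.57, -0.11 and -1.37, against -0.33, -0.04 and -0.80. Of the members in the first of these bins 11 of 19 were lower in every pair, against 38.6% of all genes there, and in the second 9 of 12, against 49.5%. Replication genes varied by bin. The 4 in the bin from 7 to 8 had medians of 0.03, -0.19 and -0.50, above that of the bin in pair 1 only. The 5 in the bin from 8 to 9 had -0.38, -0.05 and -1.35, below the bin in each pair. The 6 in the bin from 6 to 7 had -0.33, 0.06 and -0.30, against 0.08, 0.02 and 0.17 for all genes there.

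**Figure D3:**
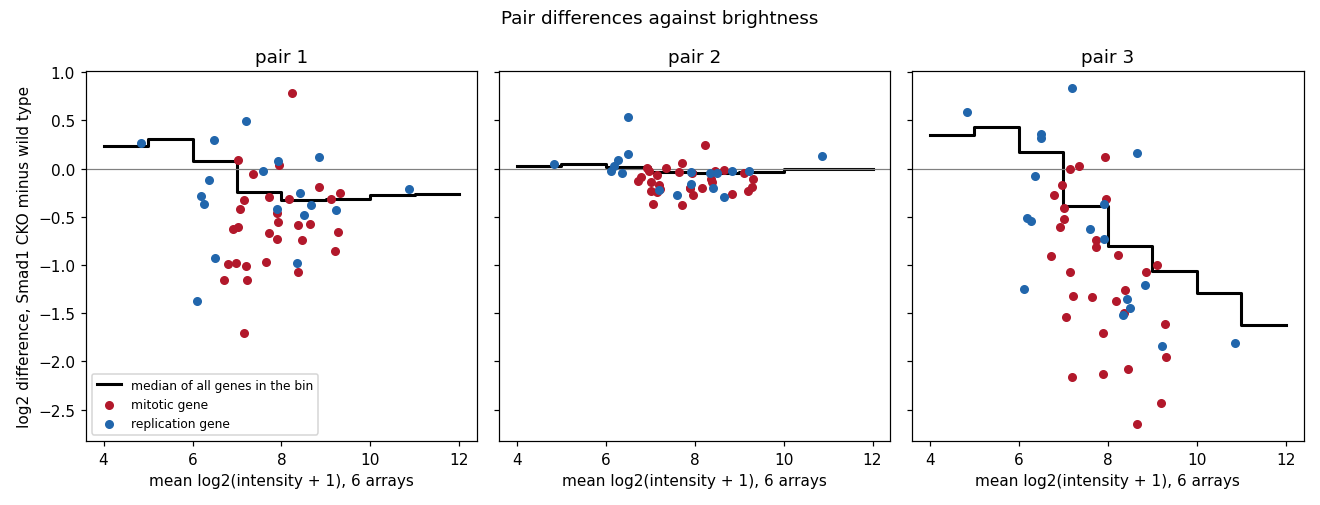
Pair difference (log2, Smad1 CKO minus wild type) of each mitotic (red) and replication (blue) gene against its mean log2(intensity + 1) over 6 arrays, with the median of all genes in each 1-unit bin as a black line, for pairs 1 to 3. The line bends downward for bright genes in pair 3, to -1.06 in the bin from 9 to 10, and 27 of 30 red points lie below 0 in pair 1 as in pair 3.

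After cyclic loess normalization between arrays, which removes such bends, the medians shrank to -0.29 for mitotic and -0.11 for replication genes, with all genes at 0.05. The mitotic median was then -0.29, -0.11 and -0.49 in pairs 1 to 3 and the replication median -0.07, 0.01 and -0.22, so mitotic genes were again the lower class in each pair (-0.20 ± 0.08, SD over 3 pairs). Of 48 genes, 17 were lower in all 3 pairs (35.4%), against 17.5% of all genes, and 4 were higher in all 3, against 23.6%. At an unadjusted p under 0.05, 9 were lower and 1 higher, against 6.25% and 8.82%. Without pair 3, and as deposited, 33 genes (24 mitotic, 9 replication) were lower in both remaining pairs, against 34.2% of all genes, with class medians of -0.35 and -0.14. At an unadjusted p under 0.05, 5 genes were then lower, against 6.19%.

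Mki67 and Top2a, both widely used to mark dividing cells, were among the lowest. Mki67, whose protein Ki-67 coats mitotic chromosomes, was at a log2 level of 9.81, 10.03 and 9.53 in the wild type animals of pairs 1 to 3, while their CKO partners had 8.96, 9.80 and 7.11. Each CKO lung lay below its partner, while CKO 2 lay above wild type 3. The difference was -1.17 ± 1.13 (SD, 3 pairs), 2.25-fold, with a 95% interval of -2.21 to -0.13 (limma, adjusted p = 0.367), and -0.54 without pair 3.

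Top2a, the topoisomerase that untangles chromosomes before they separate, was at 9.21, 9.45 and 8.90 in wild type and 8.64, 9.43 and 6.25 in CKO lungs. The pairs differed by -0.57, -0.01 and -2.65, so pair 2 was level and pair 3 far apart. The mean was -1.08 ± 1.39 (limma, adjusted p = 0.367, interval -2.32 to 0.16), and -0.29 without pair 3. Its dimmer probe sets, at mean levels of 5.39 and 5.76, differed by 1.00 and 0.13.

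The cyclins and the kinase of mitotic entry had smaller differences. Cdk1 was at 9.31, 9.59 and 9.12 in wild type and 8.99, 9.54 and 8.11 in CKO lungs, a difference of -0.46 ± 0.49 (limma, adjusted p = 0.373). After cyclic loess its pair values were 0.01, -0.02 and 0.03, a mean of 0.01. Ccna2, cyclin A2 of S and G2 phase, was at -0.51 and Ccnb2, cyclin B2, at -0.66, both lower in all 3 pairs, and after cyclic loess they were at -0.06 and -0.27. Without pair 3, Cdk1 was at -0.19, Ccna2 at -0.22 and Ccnb2 at -0.36.

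Mitotic kinases and checkpoint genes covered a wide range. Bub1, a checkpoint kinase at unattached kinetochores, was at -1.11 ± 1.00, with -1.01, -0.17 and -2.16 in the pairs, and Melk, a kinase of dividing cells, at -0.73 ± 0.54. Birc5, which encodes survivin of the chromosomal passenger complex, was at -0.93 ± 1.05, with -0.46, -0.20 and -2.13 in the pairs. On the chosen probe sets its partner subunits differed less: Aurkb, the kinase of that complex, at -0.39 and Cdca8, borealin, at -0.18. A further probe set of Cdca8, at a mean level of 7.75, gave -1.44, -0.06 and -1.06 (mean -0.86), and a dimmer one a mean of 0.04. Without pair 3, Birc5 was at -0.33, Aurkb at -0.50 and Cdca8 at -0.12, so the order of the subunits is not settled. The remaining 5 genes of the group, Aurka, Plk1, Nek2, Ttk and Bub1b, lay between -0.47 and -0.16. In all, 6 of the 10 genes were lower in every pair, and 4 of 10 after cyclic loess.

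Both genes of the anaphase-promoting complex were lower in every pair. Cdc20, its activator, was at -0.82 ± 0.72 and Ube2c, its ubiquitin-conjugating enzyme, at -0.77 ± 1.02. After cyclic loess they were at -0.34 and -0.29, and without pair 3 at -0.42 and -0.18.

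Spindle and kinetochore genes held the smallest p of the list. Tpx2, which nucleates spindle microtubules and activates Aurora A, was at 7.73, 7.90 and 7.37 in wild type and 6.57, 7.69 and 6.05 in CKO lungs. CKO 2 was above wild type 3 and near wild type 1, so the groups overlapped. Its difference was -0.90 ± 0.60 (interval -1.57 to -0.23, limma, adjusted p = 0.367), -0.69 without pair 3 and -0.70 after cyclic loess. Of its other probe sets, 1 was also lower in every pair (mean -0.26), and 2 had means of 1.05 and 0.90, with 2.78 and 2.60 in pair 3.

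Cenpf, a large protein of the outer kinetochore, had its largest difference in pair 1 (-1.70, -0.07 and -1.07; mean -0.95 ± 0.82). Cenpa, the histone variant that marks centromeres, was at -0.88 ± 0.77, with -0.73, -0.20 and -1.71 in the pairs, whereas its other probe sets, at mean levels of 4.48 and 6.61, differed by 0.89 and 0.39. The kinetochore motor Cenpe was at -0.19. Nusap1, a microtubule-binding protein of the spindle, was at -0.94 ± 1.04, with -0.74, -0.02 and -2.08 in the pairs. Without pair 3, Cenpa was at -0.46 and Nusap1 at -0.38, and without CKO 3 alone at -0.33 and -0.32. Kif2c, a microtubule depolymerase, was at -0.42 and Kif11, the motor that separates the poles, at -0.41. Other probe sets of Kif2c, at mean levels of 7.01, 6.88 and 5.10, differed by -1.16, -0.02 and 0.35. Those of Kif11, at 6.89 and 6.37, differed by -0.35 and -0.06. Hmmr, a spindle protein and hyaluronan receptor, was flat on the chosen probe set, with -0.06, 0.01 and 0.03 in the pairs. A dimmer one, at a mean level of 6.12, gave -0.85, -0.13 and -0.53 (mean -0.50), and the rest had means of -0.24, 0.05 and 0.20.

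Of 5 cytokinesis genes, 4 were lower in every pair. Anln, anillin of the contractile ring, was at 8.77, 9.09 and 8.56 in wild type and 7.70, 8.98 and 7.06 in CKO lungs. Again CKO 1 and CKO 3 lay below all wild type arrays and CKO 2 did not. The difference was -0.89 ± 0.71 (limma, adjusted p = 0.367), and -0.59 without pair 3. Ect2, which activates RhoA at the cleavage furrow, was at -0.78, the motor Kif20a at -0.77 and Prc1, which bundles midzone microtubules, at -0.63, all lower in every pair. Without pair 3 they were at -0.50, -0.39 and -0.25.

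Kif23, the motor of the centralspindlin complex, was at 8.03, 8.35 and 8.27 in wild type and 8.81, 8.60 and 7.36 in CKO lungs. It was the only mitotic gene with a mean above 0 (0.04 ± 0.86), being higher by 0.79 and 0.25 in pairs 1 and 2 and lower by 0.90 in pair 3.

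**Figure D4:**
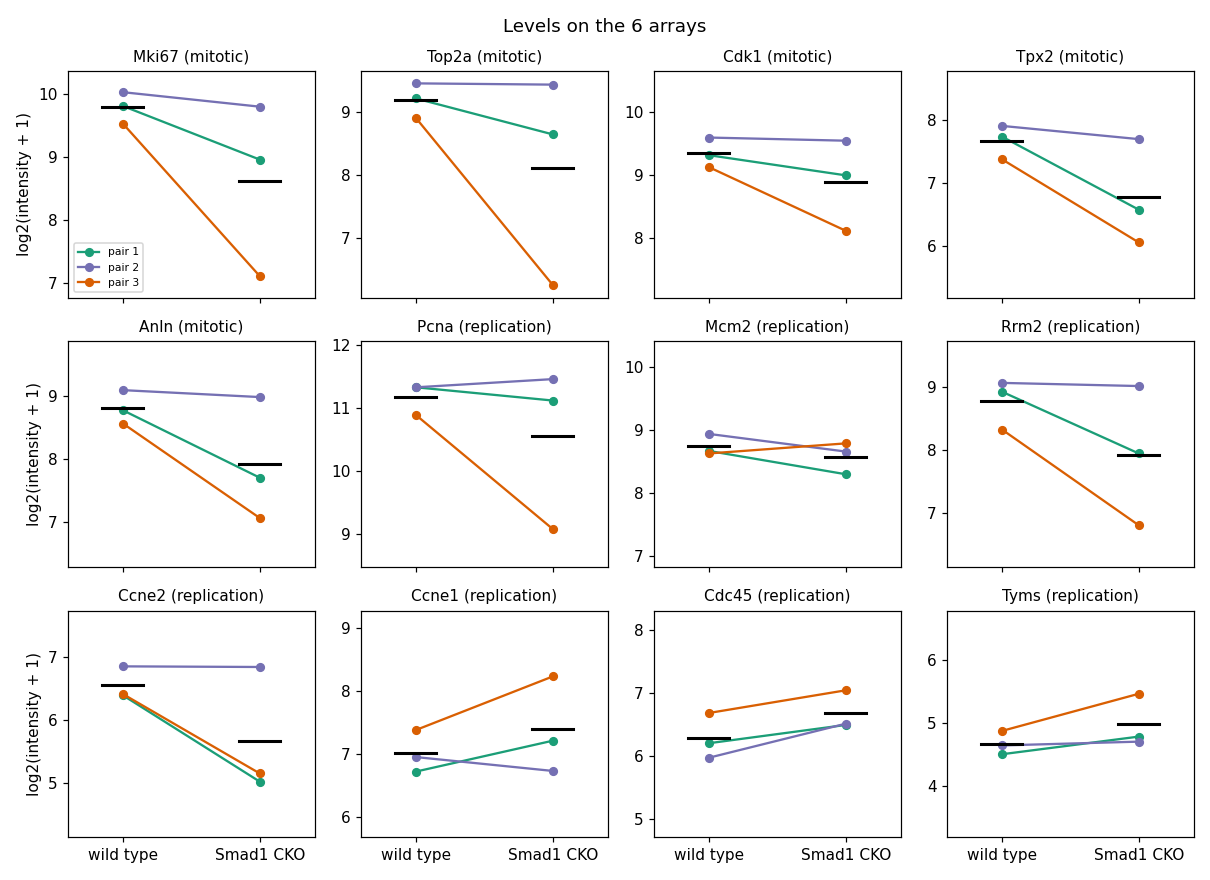
Log2(intensity + 1) of 12 genes on the 6 arrays, with a line joining each pair and black bars at the group means (n = 3); every panel spans the same number of log2 units. In most panels pair 2 is nearly level and pair 3 falls most steeply, as for Mki67 (10.03 to 9.80, and 9.53 to 7.11), while Ccne1, Cdc45 and Tyms slope upward in most pairs.

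Among replication genes, the 6 subunits of the helicase had means below 0. Mcm7 was at -0.76 ± 0.95, Mcm4 at -0.65 ± 0.72, Mcm6 at -0.60 ± 0.65, Mcm5 at -0.44 ± 0.29, Mcm2 at -0.17 ± 0.29 and Mcm3 at -0.11 ± 0.23. The first 4 were lower in all 3 pairs, and none of the 6 reached an unadjusted p under 0.05. Without pair 3, Mcm7, Mcm4 and Mcm6 were at -0.23, -0.26 and -0.23, and without CKO 3 alone at -0.08, -0.07 and -0.03. After cyclic loess they were at -0.29, -0.25 and -0.20, each lower in 2 of 3 pairs. Mcm2 was at 8.67, 8.94 and 8.63 in wild type and 8.30, 8.66 and 8.79 in CKO lungs, so that CKO 3 was above its partner. A further probe set of Mcm2, however, gave -0.55, -0.08 and -1.50 (mean -0.71), and those of Mcm3 other than its dimmest gave -0.50, -0.39 and -0.09. Cdc6, which loads the helicase, was at -0.27.

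Genes of the replication fork ranged from -0.63 to 0.40. Pcna, the sliding clamp of DNA polymerases, was at 11.33, 11.33 and 10.89 in wild type and 11.12, 11.46 and 9.08 in CKO lungs. Its difference of -0.63 ± 1.03 held a value of -1.81 in pair 3, and without that pair it was -0.04. Prim1, the primase subunit, was at -0.31, Gins1, of the active helicase, at -0.25, and Pole, the leading strand polymerase, at -0.09 with a narrow spread (SD 0.04, interval -0.53 to 0.36).

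Cdc45, the helicase activator that binds Mcm proteins, went the other way, at 6.21, 5.98 and 6.69 in wild type and 6.50, 6.52 and 7.05 in CKO lungs. Every CKO lung was above its partner and the groups overlapped. The difference was 0.40 ± 0.12 (interval -0.06 to 0.85, limma, adjusted p = 0.367), and 0.40 after cyclic loess. Its other probe set, of nearly the same mean level (6.28), gave 0.05, -0.07 and -0.82, so the direction of Cdc45 is not settled.

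In the supply of deoxynucleotides, Rrm2, the regulated subunit of ribonucleotide reductase, was at 8.93, 9.07 and 8.33 in wild type and 7.95, 9.02 and 6.81 in CKO lungs. CKO 1 and CKO 3 were below all wild type arrays, and CKO 2 was above wild type 1 and 3. The difference was -0.85 ± 0.74 (limma, adjusted p = 0.367), and -0.52 without pair 3. Its other 2 probe sets gave -0.23 and -1.03. The constant subunit Rrm1 was at -0.37 ± 0.73, with 0.12 and -0.02 in pairs 1 and 2.

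Tyms, thymidylate synthase, was at 4.51, 4.65 and 4.88 in wild type and 4.79, 4.71 and 5.47 in CKO lungs, below the array median (a log2 level of 6.15 to 6.30) on all 6 arrays. Its difference of 0.31 ± 0.27 is that of a dim probe set, in a range where all genes had positive medians in each pair (0.23, 0.03 and 0.35). Chek1, the kinase of the replication checkpoint, had no common direction on the chosen probe set (-0.93, 0.15 and 0.32). A dimmer one, at a mean level of 5.22, was lower in every pair (-0.66, -0.19 and -0.53). The rest, dimmer still, had means of 0.02, 0.15 and 0.09.

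The E cyclins, partners of Cdk2 at the onset of S phase, differed from each other. Ccne2 was at 6.39, 6.85 and 6.41 in wild type and 5.02, 6.84 and 5.15 in CKO lungs, a difference of -0.88 ± 0.75 (limma, adjusted p = 0.367). CKO 1 and CKO 3 lay far below the other 4 arrays, which were close together. Ccne1 was at 6.72, 6.95 and 7.38 in wild type and 7.21, 6.73 and 8.23 in CKO lungs, a difference of 0.37 ± 0.54, and its other probe set gave 0.18. The difference between the E cyclins was not tested.

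A gene can be read by several probe sets, and 35 of the 48 genes were. In 14 of these 35 every probe set had the same direction. The 66 probe sets not chosen were lower in 37 cases, and this went with brightness: all 18 with a mean log2 level of 7 or more (13 genes) were lower, from -1.18 to -0.09 with a median of -0.62, as were 11 of 18 between 6 and 7 and 8 of 30 under 6. For the 18 bright ones the medians were -0.53, -0.09 and -1.25 in pairs 1 to 3. Genes in general were also lower at such levels. Medians of all genes were -0.24, -0.03 and -0.39 in the bin from 7 to 8, and -0.33, -0.04 and -0.80 in the bin from 8 to 9. The share of all probe sets of that brightness that were lower was not counted. The 18 share the arrays, and many of the targets, with the chosen probe sets. When all probe sets of a gene were averaged, the class medians were -0.37 (mitotic) and -0.25 (replication).

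Other genes of the same processes were taken from lists that hold none of the 49. After cyclic loess the medians of these lists lay near 0, at -0.08 for further mitotic genes, -0.08 for further replication genes, 0.02 for G1 regulators and 0.01 for inhibitors, so the sign of the last 2 depends on the normalization. Of 46 further mitotic genes, 23 were lower in all 3 pairs (50%, against 29.3% of all genes) and 4 higher, with a median of -0.41 and pair medians of -0.32, -0.13 and -0.57. The share of all genes rose with brightness. It was 19.4% in the bin from 6 to 7, then 38.6% (7 to 8), 49.5% (8 to 9) and 53% (9 to 10). The further mitotic genes were not compared bin by bin, so their 50% cannot be said to stand out. At an unadjusted p under 0.05, 8 were lower and 2 higher, against 9.96% and 4.96% of all genes, and none was called after adjustment. The phosphatase Cdc25b, which activates Cdk1, was at -0.81 ± 0.34, Cep55, of the final abscission, at -0.86 ± 0.57, Depdc1a at -1.29 ± 0.93 and the motor Kif15 at 0.80 ± 0.51. Of 44 further replication genes 15 were lower in all pairs (34.1%), near the 29.3% of all genes, and 8 were lower and 1 higher at an unadjusted p under 0.05. Their median was -0.37, close to the -0.41 of the further mitotic genes, with pair medians of -0.32, -0.01 and -0.69. Pola1, the catalytic subunit of polymerase alpha, was at -0.86, Rpa1, which binds single-stranded DNA, at -0.91 and Uhrf1, which maintains DNA methylation, at -0.69, while the flap nuclease Fen1 was at 1.31 ± 1.11. Fen1 reached 12.74 on CKO 3 and 11.34 on CKO 1, against 9.69 to 10.53 in wild type and 9.86 on CKO 2.

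Regulators of the entry into the cycle had a similar spread. Among 20 genes of G1 cyclins, their kinases, E2F and retinoblastoma factors the median was -0.34. Of these, 8 were lower in all pairs (40%, against 29.3% of all genes) and 2 higher (against 21%). E2f7, a repressor of E2F targets, was at -0.76 ± 0.33 and the pocket protein gene Rbl1 at -0.72, Rb1 at -0.93, and E2f5 at 1.23 ± 0.93. Among 16 inhibitors of cyclin-dependent kinases and genes of arrest, 7 were lower in all pairs (43.8%) and 0 higher, with a median of -0.46. In the brightness bins from 8 to 9 and 9 to 10, 49.5% and 53% of all genes were lower in all pairs, so neither count stands out. Cdkn2b, which encodes p15, an inhibitor of Cdk4 and Cdk6, had groups that did not overlap, at 9.14, 9.21 and 9.28 in wild type and 8.03, 7.92 and 7.49 in CKO lungs. Its difference was -1.40 ± 0.35 (limma, adjusted p = 0.367), with -1.11, -1.29 and -1.79 in the pairs and -0.99 after cyclic loess. Unlike the mitotic genes, Cdkn2b was low in pair 2 as in the others. Ccng2, cyclin G2 of resting cells, was at -0.85, Cdkn1b, which encodes p27, at -0.74 and Cdkn2c, which encodes p18, at -0.51.

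Marker genes of several cell types moved in the same pairs. Of all genes 29.3% were lower in every pair. In the brightness bins from 9 to 10, 10 to 11 and 11 to 12 it was 53%, 49.3% and 49.4%. Medians of these bins were -0.32, -0.27 and -0.26 in pair 1, -0.03, 0.00 and 0.00 in pair 2, and -1.06, -1.29 and -1.62 in pair 3. Many markers lay in this range or above it. All 10 endothelial markers were lower in every pair (medians -0.72, -0.62 and -1.59), their summed intensity being 13470 to 18950 in wild type and 4074 to 12620 in CKO lungs. All 10 markers of alveolar type 1 cells were lower in every pair (medians -0.34, -0.38 and -1.75; sums of 55430 to 58370 and 15240 to 45080), as were 8 of 9 of type 2 cells (medians -1.10, -0.84 and -2.56; sums of 70720 to 80710 and 13340 to 47240). In pair 2, where the mitotic median was -0.14, these medians were -0.62, -0.38 and -0.84, and after cyclic loess the means over pairs had medians of -0.46, -0.23 and -0.89. Lower in every pair were also 5 of 10 mesenchymal, 3 of 10 general epithelial, 0 of 7 smooth muscle, 1 of 10 leukocyte, 3 of 8 erythroid and 4 of 6 mesothelial markers. The mesenchymal markers had medians of -0.24, 0.00 and -1.86 (sums of 52800 to 67320 and 13470 to 64050), the general epithelial markers -0.02, 0.21 and -1.15 (18000 to 18810 and 6128 to 20950) and those of smooth muscle -0.05, 0.15 and -1.38 (6768 to 8945 and 3528 to 8128). The leukocyte markers had medians of -0.07, 0.23 and -0.66 (12230 to 18910 and 4942 to 13620), the erythroid markers 0.02, -0.05 and -0.21 (2707 to 3329 and 1021 to 2529), and the mesothelial markers -0.41, -0.38 and -0.90 (5014 to 6068 and 1125 to 3317). After cyclic loess the median over mesenchymal markers was -0.04 (from -0.70), and it was above 0 for general epithelial (0.24, from -0.19), leukocyte (0.30, from -0.13) and smooth muscle markers (0.08, from -0.34), while it was 0.03 for erythroid (from 0.07) and -0.48 for mesothelial markers (from -0.63). The part of these cells in the values of the cell cycle genes was not tested.

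Across the alternative settings the class medians kept their sign and their order. The mitotic median ran from -0.88 to -0.27 and the replication median from -0.43 to -0.04 over 14 settings, with the mitotic genes lower in each of them. In 3 of these settings (no pair block, an intensity trend, robust eBayes) the differences are the same by construction, so they test nothing about the medians. With 3 wild type arrays against CKO 1 and CKO 2, unpaired, the medians were -0.27 and -0.04, and 0 genes were lower at an unadjusted p under 0.05.

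**Figure D5:**
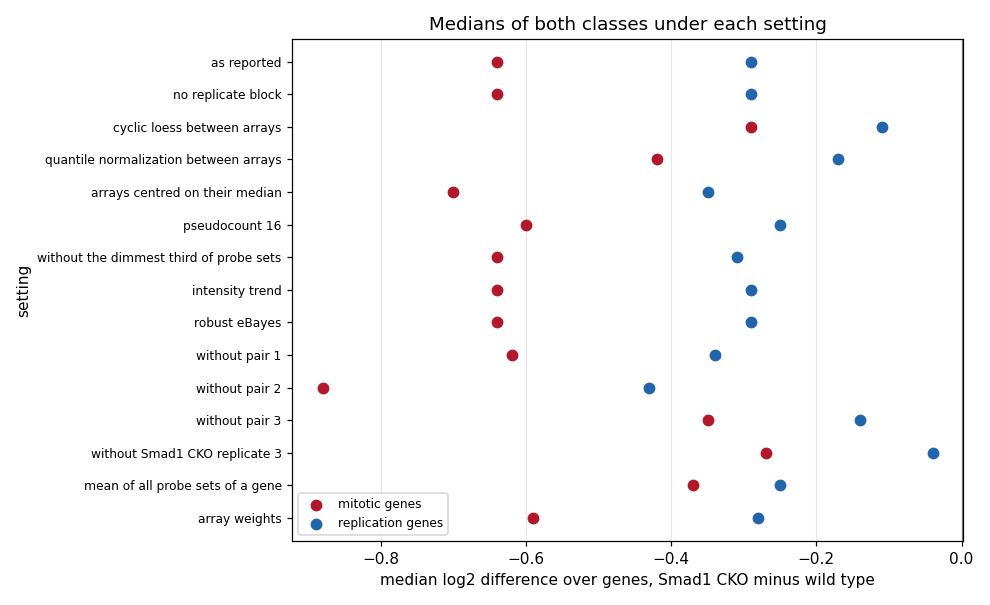
Median log2 difference (Smad1 CKO minus wild type) over 30 mitotic (red) and 18 replication (blue) genes as reported and under 14 alternative settings, 1 per row. Red lies left of blue in every row, and both lie nearest to 0 without CKO 3 (-0.27 and -0.04).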

How the data were processed

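Per the submitters' processing notes, RMA was used, with no version or settings named. The deposited table holds 1 intensity per probe set and array, not on a log scale, judged from its values. The upper quartile ran from 170.3 on CKO 3 to 283.8 on wild type 2, so the deposited arrays did not share 1 distribution. Values became log2(intensity + 1). The 64 control probe sets were left out, and 45037 were tested. Each gene with its own symbol was represented by its brightest probe set. The paired fit used lmFit and eBayes of limma 3.58.1 (R 4.3.3), two-sided, the pair entering as a block, with Benjamini-Hochberg adjustment. Pairs come from the design text and from array names. Deviations from group means correlated within pairs at 0.258, 0.604 and 0.597, and at 0.215 or less between arrays of different pairs. Deviations of a genotype's arrays from their own mean cancel out, which pushes correlations within a genotype down, so those are no contrast. Wild type 1 correlated with CKO 2 at 0.215, close to the 0.258 with its partner, so these values hardly mark out pair 1. The fit was tested on simulated data. The members, their classes and the other gene lists were chosen with earlier results of these data known. Promoter windows came from RefSeq (GRCm38.p6). Values in every array are given for Mki67, Top2a, Cdk1, Pcna, Mcm2 and Ccne1, and for up to 2 members of smallest p per class and direction; other lists name up to 4 genes of smallest p. Bin, marker and probe set summaries were added after the data were seen. No scanner values were used.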

Additional observations from a re-analysis of the deposited data

How the results depend on the processing

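With the pair block left out, which cannot move the mean differences in this balanced design, 0 genes were called in limma (0 lower at an unadjusted p under 0.05, against 13 with the pairs), and the lowest adjusted p was 0.586. Without pair 1, 2 or 3, or without CKO 3 alone, 0 to 20 genes were lower at that p: 0 without pair 1, 20 without pair 2, 5 without pair 3 and 0 without CKO 3, with 0 to 1 higher. After quantile normalization 5 were lower and 1 higher, after cyclic loess 1 was higher, and with a pseudocount of 16 also 1. Array weights called 35 of 48 genes (34 lower and 4 higher at an unadjusted p under 0.05), in a fit that called 12747 probe sets lower and 10487 higher and gave the arrays of pair 1 a weight of 7.05 and those of pairs 2 and 3 weights of 0.507 and 0.28. It therefore rests almost on pair 1 alone. Cyclic loess left 17 genes lower in every pair (13 mitotic, 4 replication) and quantile normalization 17 (14 and 3), against 30 (22 and 8). The median of mitotic minus that of replication genes was -0.36, and -0.12 with all probe sets of a gene averaged; the cause was not tested.

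Of the 48 genes, 29 kept 1 direction (27 lower) in every alternative that gave them a value, 13 for Tyms, which is not among the brighter probe sets, and 14 for the others. The others changed sign at least once. After cyclic loess these were Cdk1 (0.01), Plk1 (0.17), Cdca8 (0.15), Hmmr (0.22), Mcm2 (0.26), Mcm3 (0.23) and Rrm1 (0.07). After quantile normalization they were Plk1 (0.18), Cdca8 (0.12), Hmmr (0.21), Mcm2 (0.26) and Mcm3 (0.15), and with arrays centred on their median Kif23 (-0.01). With 1 pair, or CKO 3 alone, left out, the ranges that spanned 0 were those of Plk1 (-0.30 to 0.03), Hmmr (-0.04 to 0.02), Kif23 (-0.33 to 0.52), Chek1 (-0.39 to 0.24), Ccne1 (-0.05 to 0.67), Aurka (-0.32 to 0.07), Mcm3 (-0.20 to 0.14), Cdc6 (-0.45 to 0.05), Prim1 (-0.45 to 0.01), Pole (-0.10 to 0.05), Pcna (-1.01 to 0.10) and Rrm1 (-0.62 to 0.13). With probe sets averaged they were Top2a (0.01), Cenpa (0.14), Tpx2 (0.20), Kif23 (-0.01) and Gins1 (0.04), and with array weights Aurka (0.05), Cdca8 (0.00), Mcm3 (0.05) and Rrm1 (0.06). The number of arrays limits the precision, and no detection calls were used.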
